A study of Mus musculus with 6 samples.

Results

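Chemokines are small secreted or membrane-bound proteins that draw leukocytes to a tissue, and chemokine receptors are the G protein-coupled receptors through which leukocytes read them. The family was taken by gene symbol: every gene of the deposited table whose symbol begins with Ccl, Cxcl, Cx3cl, Xcl, Ccr, Cxcr, Cx3cr or Ackr followed by a number, with at most 1 letter after it. This gave 40 of the 19616 genes in the table, and 28 of these 40 had enough counts to be tested. RNA-Seq was performed on jejunal intestinal epithelial cells (IEC) enriched by EDTA from 3 control mice, labelled wildtype and named C1, C3 and C3-3, and from 3 mice of the genotype villin-Cre Hdac1-/-; Hdac2-/-, named H1, H5 and H9 and called Hdac1/2-deleted here. All mice were 3 months old, of mixed C57BL/6J, 129SV and CD1 background, and gave 1 library each. The villin-Cre transgene drives the deletion of floxed Hdac1 and Hdac2, which encode histone deacetylases, in IEC, so leukocytes that remain in the preparation are not its target. Per-mouse values below follow the order C1, C3 and C3-3, then H1, H5 and H9.

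In the small intestine, enterocytes are known to make Ccl25, which draws Ccr9-bearing lymphocytes, Ccl28, Cx3cl1 and Cxcl16, while the epithelium over lymphoid follicles makes Ccl20. The interferon-inducible ligands Cxcl9, Cxcl10 and Cxcl11 share the receptor Cxcr3, and Ccl3, Ccl4 and Ccl5 are typical products of activated T cells and other leukocytes. Atypical receptors of the Ackr group bind chemokines without G protein signalling and remove them.

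Between 58017009 and 65902344 reads were counted per control mouse and between 36111035 and 65230566 per Hdac1/2-deleted mouse, H5 being the lowest. Levels are given as CPM, the usual count relative to library size, here after TMM scaling, and 3 counts, the smallest level taken as shown, correspond to 0.0405 to 0.079 CPM, a floor that covers counting error only. Hdac1 itself was at 34.5 to 48.9 CPM in control and 2.53 to 4.81 in Hdac1/2-deleted mice, with a log2 fold change of -3.43 (adjusted p = 2.9e-05, edgeR quasi-likelihood test). Hdac2 was at 23.6 to 32.9 and 21.4 to 26.6 CPM, with a log2 fold change of -0.18 (adjusted p = 0.44), so its RNA level did not mark the genotype. The 8 epithelial markers checked, among them Epcam and Vil1, summed to between 13667.3 and 18981.4 CPM in every mouse. By edgeR and by DESeq2, 0 of them were called, while 3 were lower at an unadjusted p under 0.05, among them Epcam at a log2 fold change of -0.62 (adjusted p = 0.017). In bulk RNA of this kind, fewer cells of a type and less RNA per cell cannot be told apart.

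Chemokine expression shifted gene by gene in Hdac1/2-deleted IEC, with no common direction across the family. Calls required a 2-fold difference or more together with an adjusted p up to 0.05, from the quasi-likelihood test of edgeR, adjusted by Benjamini-Hochberg over all 15618 genes tested. The receptor gene Ccr4 and the ligand genes Ccl17, Ccl20 and Cxcl10 were increased. The ligand genes Ccl6, Cxcl11, Ccl4 and Ccl28 and the scavenging receptor gene Ackr4 were decreased. Thus 9 of 28 tested members (32.1%) were called, against 25.2% of all genes tested. The 4 increases were 14.3% of members against 12.4% of all genes, and the 5 decreases were 17.9% against 12.7%, so the share of called genes lay near the background in both directions. With library totals as the only scaling, 7 members were increased and 4 decreased. In 14 of the 28 members the levels of the groups did not overlap, against 53.2% of all genes tested. The median log2 fold change was -0.18 over the members and -0.01 over all genes tested.

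**Figure D1:**
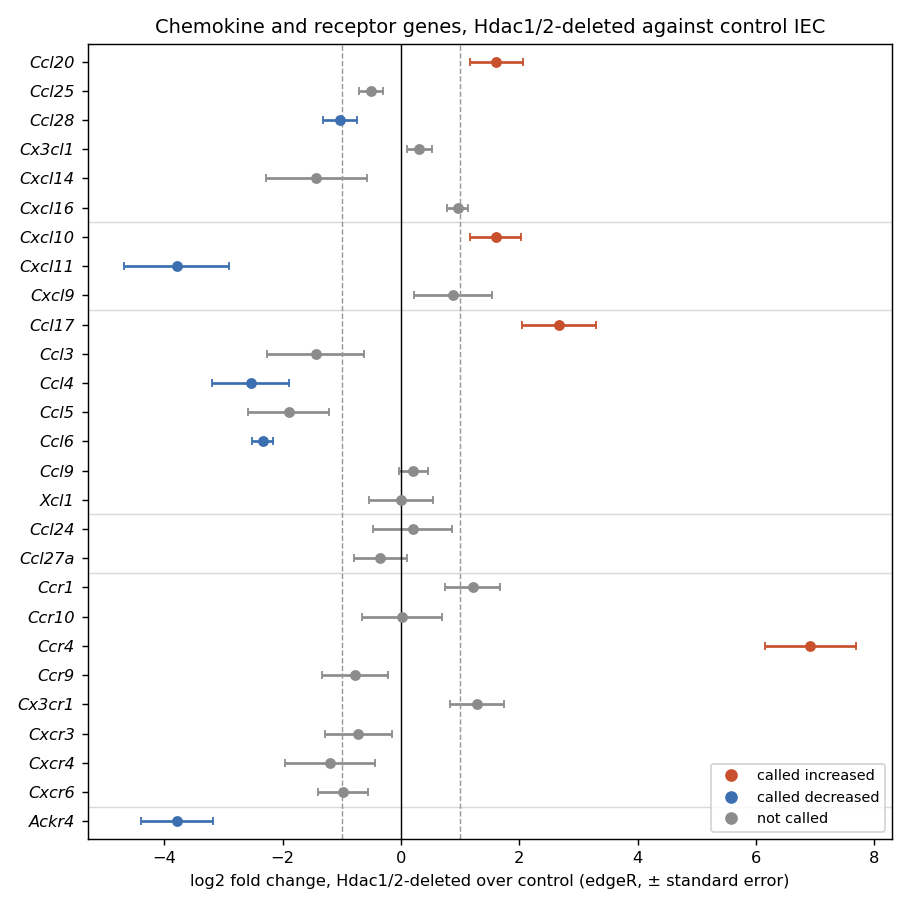
Log2 fold change of tested members, Hdac1/2-deleted over control, with the standard error from edgeR (3 mice per group); horizontal lines part the role groups and dashed lines mark a 2-fold change. Orange points are called increased (4 genes), blue points called decreased (5 genes) and grey points not called, and Ccr4 lies farthest from 0 at 6.92.

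The 3 ligand genes that were increased are shown by the 250 bases before their start site, because they rose from low levels in all 3 Hdac1/2-deleted mice. Sequences are RefSeq's for GRCm38.p6, from a promoter table in which 29 of the 40 members were matched. Capitals mark matches, on either strand, to the NF-kB consensus, to the STAT-type motif TTCNNNGAA or to the interferon-response-type motif GAAANNGAA, and no matches overlap in these windows.
Cxcl10, chr5:92348890-92349139, minus strand: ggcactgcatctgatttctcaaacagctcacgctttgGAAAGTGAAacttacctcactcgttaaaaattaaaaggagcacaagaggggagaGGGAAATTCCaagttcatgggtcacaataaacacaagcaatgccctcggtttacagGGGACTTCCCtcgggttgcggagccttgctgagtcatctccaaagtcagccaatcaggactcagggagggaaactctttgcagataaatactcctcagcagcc
Ccl20, chr1:83116516-83116765, plus strand: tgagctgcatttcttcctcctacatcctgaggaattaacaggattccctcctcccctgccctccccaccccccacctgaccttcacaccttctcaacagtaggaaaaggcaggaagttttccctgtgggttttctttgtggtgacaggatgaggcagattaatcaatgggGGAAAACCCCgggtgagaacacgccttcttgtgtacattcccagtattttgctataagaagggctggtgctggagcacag
Ccl17, chr8:94810203-94810452, plus strand: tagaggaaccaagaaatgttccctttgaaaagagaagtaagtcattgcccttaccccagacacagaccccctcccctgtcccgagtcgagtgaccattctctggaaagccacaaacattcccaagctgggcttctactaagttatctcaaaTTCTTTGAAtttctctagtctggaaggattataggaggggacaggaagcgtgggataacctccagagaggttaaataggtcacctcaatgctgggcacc
The Cxcl10 window holds 2 NF-kB matches, beginning 159 and 103 bases before the start, and a GAAANNGAA match at 213 bases. In Ccl20 a single NF-kB match begins 80 bases before the start, and in Ccl17 a TTCNNNGAA match begins at 99 bases. Over all 32851 promoters in the table, 3.90% hold the NF-kB consensus in this window, 7.02% TTCNNNGAA and 7.13% GAAANNGAA. Among the 29 members with a promoter, 6, 3 and 5 do, called or not. A match describes letters only, and binding was not measured.

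By level, the family was carried by few genes. Its summed expression was 987, 1047 and 1179 CPM in control and 746, 711 and 909 CPM in Hdac1/2-deleted mice. Ccl25 alone made up 46.7% to 63.3% of this sum, and Ccl25, Cx3cl1 and Ccl6 together 80.3% to 88.5%. Per kilobase of exon, the highest mean levels in control IEC were those of Ccl25 (85.8 CPM per kb), Ccl5 (78.0), Ccl6 (60.2) and Cx3cl1 (40.1), followed by Ccl24 (13.9) and Cxcl16 (7.51). In Hdac1/2-deleted IEC, Ccl25 still stood first (60.2 CPM per kb), then Cx3cl1 (49.7), Ccl5 (20.9), Ccl24 (16.0), Cxcl16 (14.6) and Ccl6 (11.9). The order of these leading genes in control IEC is loose, since Ccl5 ranged from 25.1 to 120 CPM between control mice before division by its 0.960 kb, a range that takes in the mean levels per kb of Ccl25, Ccl6 and Cx3cl1.

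**Figure D2:**
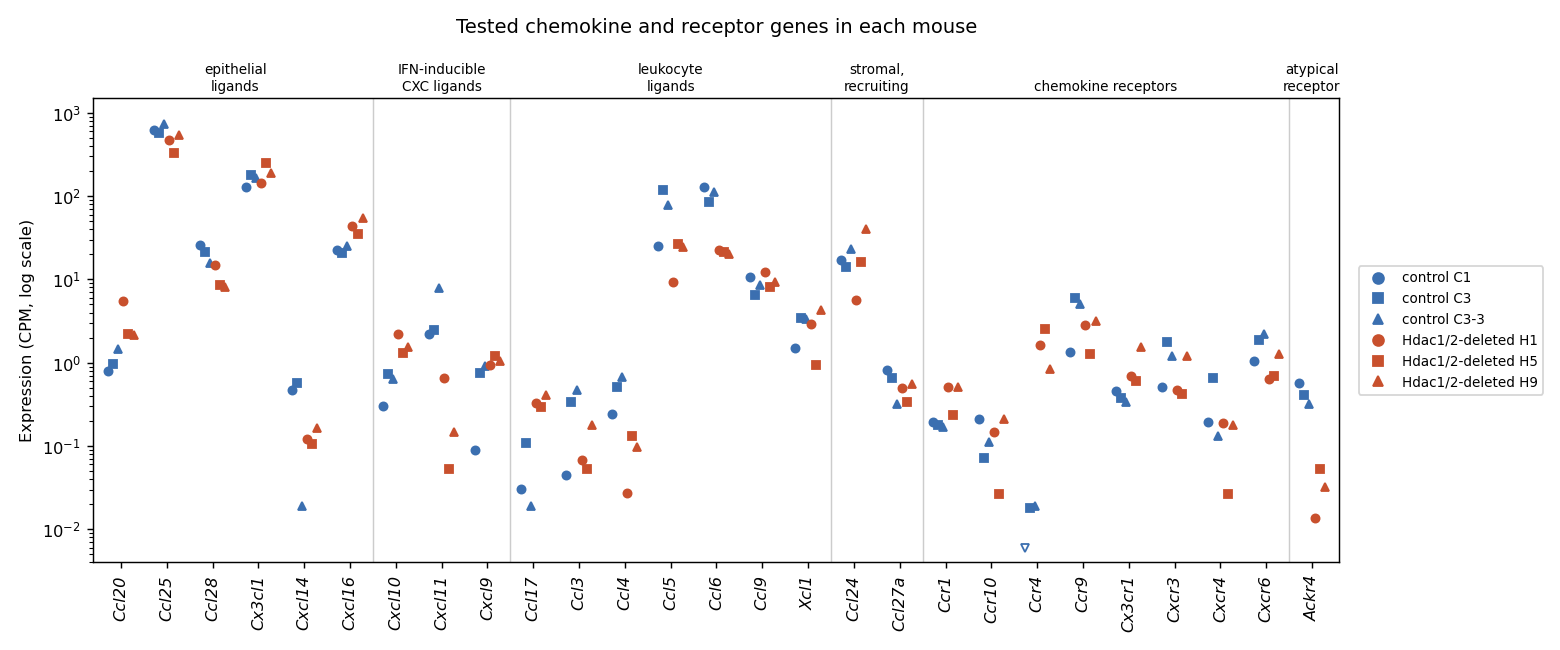
Expression in CPM (log axis) of tested members in each of the 6 mice, with symbols for single mice, blue for control and orange for Hdac1/2-deleted, and the role group above each block. The open triangle at the bottom marks the 0 counts of Ccr4 in C1, and Ccl6 shows 3 orange points close together between 20.0 and 22.6 CPM, below every control mouse.

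Among the 6 epithelial ligands, all tested, 1 was increased (Ccl20) and 1 decreased (Ccl28). Their median log2 fold change was -0.10, against -0.01 over all genes tested. Ccl25, Cx3cl1, Cxcl14 and Cxcl16 were not called.

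Ccl20 (ENSMUSG00000026166, chromosome 1 from 83116766 to 83119167 of GRCm38), the ligand of Ccr6, was at 0.785, 0.972 and 1.47 CPM in control mice and 5.44, 2.19 and 2.16 CPM in Hdac1/2-deleted mice. Every Hdac1/2-deleted mouse lay above every control mouse, and H1 was the highest. The log2 fold change was 1.61 ± 0.45 (SE, adjusted p = 0.019), or 3.05-fold. It was 1.02 without H1 (adjusted p = 0.077), and without C3 it was 1.55 with an adjusted p of 0.052, so the call rests on these mice. The list of 6 M cell and follicle-associated epithelium genes summed to 79.3, 105 and 72.4 CPM in control and 138, 133 and 149 CPM in Hdac1/2-deleted mice, with Gp2 and Tnfaip2 increased among 5 tested. Spib, Tnfrsf11a and Pglyrp1 were not called, with log2 fold changes of -0.02, 0.01 and 0.63 (adjusted p = 0.96, 0.98 and 0.011). Mean levels in control and Hdac1/2-deleted mice were 0.0694 and 0.548 CPM for Gp2, 0.856 and 30.2 for Tnfaip2, and 44.3 and 68.4 for Pglyrp1. The part of such cells in the Ccl20 result was not tested.

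Ccl28 (ENSMUSG00000074715, chromosome 13 from 119623819 to 119654359), a mucosal ligand of Ccr10, was at 26.2, 21.6 and 15.8 CPM in control and 14.7, 8.48 and 8.01 CPM in Hdac1/2-deleted mice. The groups lay next to each other without overlap. Its log2 fold change was -1.03 ± 0.28 (SE, adjusted p = 0.017), just past 2-fold. The call was lost without C1, H5 or H9, where adjusted p was 0.051, 0.072 and 0.062, and it was lost with library totals alone as the scaling (log2 fold change -0.83, adjusted p = 0.065).

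Ccl25 (ENSMUSG00000023235, chromosome 8 from 4325210 to 4360020), the most abundant member, was at 614, 578 and 725 CPM in control and 472, 332 and 540 CPM in Hdac1/2-deleted mice. Control values were all above the others, but the log2 fold change of -0.51 ± 0.20 (SE) had an adjusted p of 0.073 and was not called. Ccl25 shares 204 exon bases with Elavl1 on the other strand, and Elavl1 had a log2 fold change of 0.22 (adjusted p = 0.30).

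Cxcl16 (ENSMUSG00000018920, chromosome 11 from 70453983 to 70459984), a membrane-bound ligand of Cxcr6, was at 22.5, 20.5 and 25.0 CPM in control and 43.3, 35.4 and 53.9 CPM in Hdac1/2-deleted mice. Its log2 fold change of 0.96 ± 0.18 (SE, adjusted p = 0.0028) passed the p limit and stayed just under 2-fold. It passed 2-fold when scaled by library totals only (1.15), without C3-3 (1.05) and without H5 (1.10). Zmynd15, which shares 552 exon bases with Cxcl16 on the other strand, had mean levels of 0.281 CPM in control and 1.27 CPM in Hdac1/2-deleted mice, far below Cxcl16. Whether reads were counted by strand is not given in the sources used here.

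Cx3cl1 (fractalkine, ENSMUSG00000031778), the tethered ligand of Cx3cr1, was at 130, 178 and 165 CPM in control and 145, 249 and 191 CPM in Hdac1/2-deleted mice. The groups overlapped, and the log2 fold change of 0.31 had an adjusted p of 0.28. Cxcl14 (ENSMUSG00000021508) was at 0.468, 0.576 and 0.0188 CPM in control and 0.121, 0.105 and 0.163 CPM in Hdac1/2-deleted mice. Control C3-3, with 1 count of Cxcl14, lay below all other mice, and the log2 fold change of -1.43 had an adjusted p of 0.22 with it and was -1.97 (adjusted p = 0.020) without it. Summed over the 6 genes, epithelial ligands were at 794, 800 and 933 CPM in control and 680, 628 and 796 CPM in Hdac1/2-deleted mice (log2 ratio -0.26, two-sided exact permutation p = 0.20). With 3 mice against 3, this test cannot give a p below 0.10.

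The 3 interferon-inducible ligands of Cxcr3, whose genes are neighbours on chromosome 5, parted: Cxcl10 was increased, Cxcl11 was decreased and Cxcl9 was not called. In all 3 genes the groups did not overlap, as in 53.2% of all genes tested. Their median log2 fold change was 0.88.

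Cxcl10 (ENSMUSG00000034855, chromosome 5 from 92346638 to 92348889) was at 0.302, 0.738 and 0.640 CPM in control and 2.23, 1.29 and 1.54 CPM in Hdac1/2-deleted mice. All Hdac1/2-deleted mice were higher, with a log2 fold change of 1.60 ± 0.43 (SE, adjusted p = 0.015), or 3.03-fold. Without H1 it was 1.35 with an adjusted p of 0.063. Cxcl10 shares 133 exon bases with Art3 on the other strand, and Art3 had mean levels of 0.109 CPM in control and 0 in Hdac1/2-deleted mice.

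Cxcl11 (ENSMUSG00000060183, chromosome 5 from 92359544 to 92365485) was at 2.20, 2.47 and 7.88 CPM in control and 0.648, 0.0527 and 0.146 CPM in Hdac1/2-deleted mice. Control C3-3 stood highest, and H5, with 2 counts, was below the floor. The log2 fold change was -3.79 ± 0.89 (SE, adjusted p = 0.013), or 13.8-fold lower. Without H9 the adjusted p was 0.051, at a log2 fold change of -3.45, and the log2 fold change was -5.27 without H1 and -2.95 without C3-3. C57BL/6 mice are known to carry a frameshift in Cxcl11, and the alleles of these mice of mixed background were not analysed here. A processed pseudogene, Gm2673, covers 1582 exon bases of Cxcl11 on the other strand.

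Cxcl9 (ENSMUSG00000029417) was at 0.0906, 0.756 and 0.903 CPM in control and 0.945, 1.21 and 1.06 CPM in Hdac1/2-deleted mice. Only C1 was far below the rest, and the log2 fold change of 0.88 had an adjusted p of 0.32. Within each mouse, the log2 ratio of Cxcl10 to Cxcl11 counts, with 0.5 added, was -2.84, -1.73 and -3.60 in control and 1.77, 4.31 and 3.33 in Hdac1/2-deleted mice. The sign of this ratio thus differed between the groups in every mouse (two-sided exact permutation p = 0.10, the smallest possible, and 0.22 after adjustment over 11 ratios chosen after the values were seen).

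Among leukocyte ligands, 7 of 8 were tested, Ccl17 was increased and Ccl6 and Ccl4 were decreased. Their median log2 fold change was -1.44. The summed level of the 8 genes was 167, 215 and 203 CPM in control and 47.5, 57.5 and 58.9 CPM in Hdac1/2-deleted mice (log2 ratio -1.84, two-sided exact permutation p = 0.10, the smallest possible). Ccl6 and Ccl5 made up most of this sum. The group is named by known role, and which cells of the preparation held this RNA cannot be told from bulk counts.

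Ccl6 (ENSMUSG00000018927, chromosome 11 from 83587882 to 83593087), a CC ligand of Ccr1 known from myeloid cells, was at 129, 84.2 and 111 CPM in control and 22.6, 21.3 and 20.0 CPM in Hdac1/2-deleted mice. All 3 Hdac1/2-deleted mice had nearly the same low level. The log2 fold change was -2.34 ± 0.18 (SE, adjusted p = 2.9e-05), or 5.08-fold lower, and between -2.49 and -2.19 when single mice were left out. Of 9 macrophage and dendritic cell markers, Csf1r, C1qa and C1qb were increased and Cd14 was decreased, and the list summed to 71.7 to 82.6 CPM in control and 37.7 to 61.5 CPM in Hdac1/2-deleted mice. Cd14 made up most of that sum, at 67.9, 48.5 and 58.2 CPM in control and 13.9, 18.6 and 11.0 CPM in Hdac1/2-deleted mice. Among control mice, Ccl6 was highest in C1, where the leukocyte marker Ptprc (8.21 CPM) and Csf1r (2.81 CPM) were lowest. The part of macrophages, dendritic cells and other leukocytes in the Ccl6 result was not tested.

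The neighbouring gene Ccl9 (ENSMUSG00000019122), another Ccr1 ligand 9.25 kb away, was at 10.7, 6.43 and 8.60 CPM in control and 12.2, 8.13 and 9.38 CPM in Hdac1/2-deleted mice. The groups of Ccl9 overlapped, with a log2 fold change of 0.21 (adjusted p = 0.53). The log2 ratio of Ccl6 to Ccl9 within a mouse was 3.60, 3.71 and 3.69 in control and 0.89, 1.39 and 1.09 in Hdac1/2-deleted mice. It did not overlap (two-sided exact permutation p = 0.10, the smallest possible, and 0.22 after adjustment over 11 ratios). As it was formed after both results were seen, it adds no test to them.

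Ccl17 (ENSMUSG00000031780, chromosome 8 from 94810453 to 94812036), a ligand of Ccr4 typical of dendritic cells, had 2, 6 and 1 counts in control and 24, 11 and 25 counts in Hdac1/2-deleted mice. These are low levels, 0.0188 to 0.108 CPM against 0.290 to 0.406 CPM, yet every Hdac1/2-deleted mouse was higher. The log2 fold change was 2.67 ± 0.63 (SE, adjusted p = 0.0088), and 2.12 with a prior count of 2. It lay between 2.32 (without C3-3) and 3.67 (without C3) when single mice were omitted, with a call each time. Ccl22, the other Ccr4 ligand, had 1, 9 and 4 counts in control and 12, 3 and 3 counts in Hdac1/2-deleted mice and was not tested.

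Ccl4 (ENSMUSG00000018930, chromosome 11 from 83662584 to 83664683), a CC ligand of activated lymphocytes and macrophages, was at 0.242, 0.504 and 0.677 CPM in control and 0.0270, 0.132 and 0.0975 CPM in Hdac1/2-deleted mice. Each Hdac1/2-deleted mouse was below each control mouse, with 2, 5 and 6 counts. The log2 fold change was -2.54 ± 0.65 (SE, adjusted p = 0.013), and the adjusted p was 0.051 without H1, at -2.04. Ccl3, its neighbour, ranged from 0.0453 to 0.470 CPM in control and from 0.0527 to 0.179 CPM in Hdac1/2-deleted mice, with a log2 fold change of -1.44 (adjusted p = 0.19). For Ccl3 it was -1.96 without C1 (adjusted p = 0.040), -2.16 without H9 (adjusted p = 0.14) and -0.87 without C3-3 (adjusted p = 0.50).

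Ccl5 (ENSMUSG00000035042), a CC ligand made by cytotoxic T cells, was at 25.1, 120 and 79.3 CPM in control and 9.25, 26.6 and 24.4 CPM in Hdac1/2-deleted mice. Control C1 lay among the Hdac1/2-deleted mice, and the log2 fold change of -1.90 ± 0.68 (SE) had an adjusted p of 0.073. Without C1 the log2 fold change was -2.31 (adjusted p = 0.015), and DESeq2 gave -1.88 (adjusted p = 0.029). With any other mouse left out the log2 fold change was not called, down to -1.37 without C3 (adjusted p = 0.18). Xcl1, the lymphotactin made by T and NK cells, ranged from 1.49 to 3.46 CPM in control and from 0.948 to 4.34 CPM in Hdac1/2-deleted mice, with a log2 fold change of 0.00 (adjusted p = 1).

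T cell markers are given beside these members. The 12 T cell and intraepithelial lymphocyte markers summed to 154, 589 and 501 CPM in control and 82.7, 188 and 165 CPM in Hdac1/2-deleted mice. These sums overlapped, C1 being low among control mice (log2 ratio -1.52, two-sided exact permutation p = 0.30). Cd3g and Cd8a were decreased, Cd4 was increased and 9 were not called, while 25.2% of all genes tested were called. The median log2 fold change was -1.27 over the list, and DESeq2 called 6 decreased and 1 increased. The 7 pan-leukocyte markers had a median log2 fold change of -0.48 and summed to 44.9, 139 and 116 CPM in control and 100, 129 and 135 CPM in Hdac1/2-deleted mice. Lcp1 alone was increased, at 70.0, 87.2 and 67.0 CPM in Hdac1/2-deleted mice, and the other 6, among them Ptprc at a log2 fold change of -0.96 (adjusted p = 0.090), were all below 0 and not called. Per T cell marker Cd3e, the log2 ratio of Ccl5 was 1.91, 2.36 and 1.98 in control and 1.21, 1.65 and 1.48 in Hdac1/2-deleted mice. This is a difference of -0.64 with no overlap (two-sided exact permutation p = 0.10, the smallest possible, and 0.22 after adjustment over 11 ratios). For Ccl4 the corresponding difference was -1.34, also with no overlap, and for Xcl1 it was 0.96 with overlap. The part of T cell content in these results was not tested further.

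**Figure D3:**
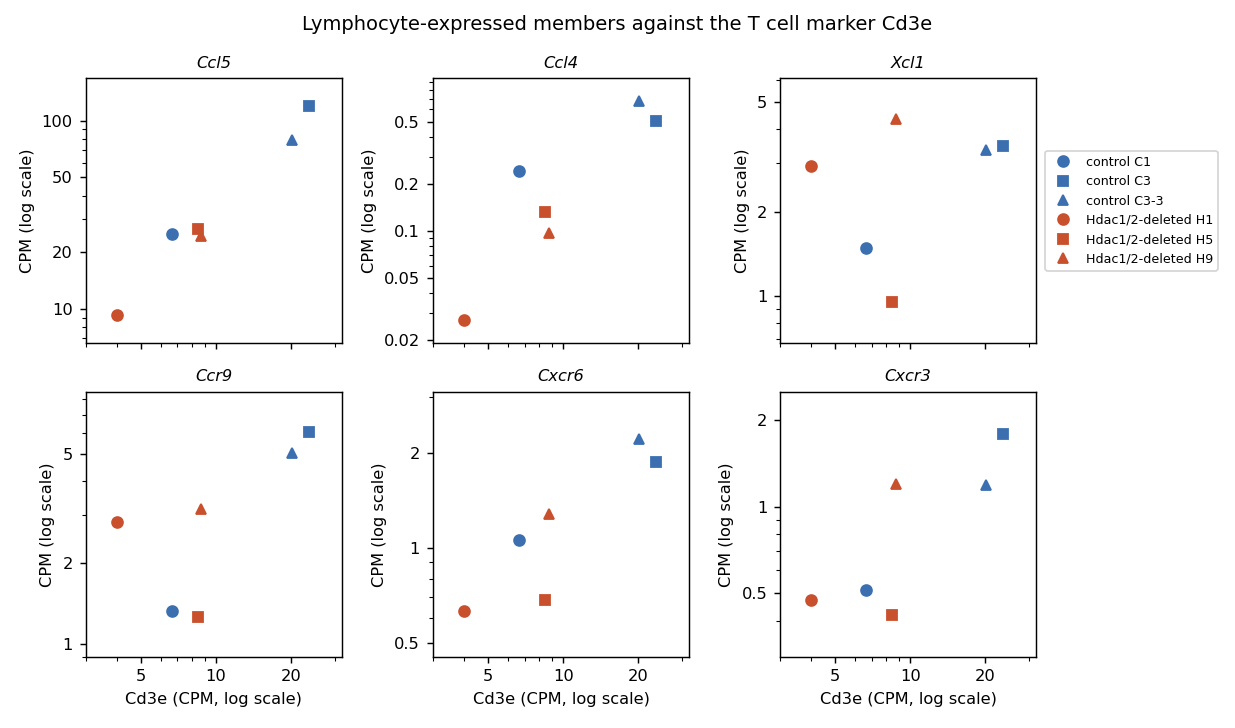
Expression in CPM of 6 lymphocyte-expressed members (one panel each, log axes) against that of the T cell marker Cd3e in the same mouse, blue for control and orange for Hdac1/2-deleted. Control C1 lies among or near the Hdac1/2-deleted mice in Cd3e, at 6.66 CPM, and in Ccl5, Ccr9 and Cxcr3.

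Of 14 receptor genes in the table, 9 were tested, and Ccr4 alone was called. The median log2 fold change of the 9 was 0.02. Summed over all 14, receptor RNA was at 4.41, 12.2 and 9.79 CPM in control and 7.60, 6.45 and 10.2 CPM in Hdac1/2-deleted mice (log2 ratio -0.12, two-sided exact permutation p = 0.90).

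Ccr4 (ENSMUSG00000047898, chromosome 9 from 114490316 to 114504916), known from type 2 helper and regulatory T cells, had 0, 1 and 1 counts in control and 119, 97 and 51 counts in Hdac1/2-deleted mice. In CPM these were at most 0.0188 in control, below the floor, and 1.61, 2.55 and 0.829 in Hdac1/2-deleted mice. The pooled counts, 267 against 2, gave a depth-corrected ratio of 135 with an exact 95% Clopper-Pearson interval of 36.9 to 1116.5, which covers counting error only. The fitted log2 fold change was 6.92 ± 0.77 (SE, adjusted p = 2e-04), 5.19 with a prior count of 2, and 6.33 to 7.32 with each mouse left out.

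No other annotated gene overlaps Ccr4. Cd4 was at 0.589, 0.756 and 0.602 CPM in control and 1.17, 1.76 and 3.06 CPM in Hdac1/2-deleted mice, with a log2 fold change of 1.62 (adjusted p = 0.013). The log2 ratio of Ccr4 to Cd4 counts, with 0.5 added, was -6.30, -4.82 and -4.44 in control and 0.45, 0.53 and -1.87 in Hdac1/2-deleted mice. The ratio did not overlap (two-sided exact permutation p = 0.10, the smallest possible, and 0.22 after adjustment over 11 ratios). With at most 1 count of Ccr4 in a control mouse, this separation repeats the Ccr4 result and adds no test. H9, the highest in Cd4, was the lowest of the Hdac1/2-deleted mice in Ccr4. Which cells of the preparation held the Ccr4 RNA cannot be told from bulk counts.

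Ccr9, Cxcr6, Cxcr3 and Cxcr4 had log2 fold changes below 0 and were not called. Ccr9, the receptor of Ccl25, was at 1.33, 6.05 and 5.08 CPM in control and 2.81, 1.26 and 3.15 CPM in Hdac1/2-deleted mice (log2 fold change -0.78, adjusted p = 0.30). Exons of Ccr9 share 1932 bases with an annotated transcript on the other strand that was not analysed here, 269 bases with Gm17200 on the same strand and 22 bases with the abundant Slc6a20a on the other strand. Slc6a20a was at mean levels of 485 CPM in control and 106 CPM in Hdac1/2-deleted mice (log2 fold change -2.19, adjusted p = 0.00042). Cxcr6, the receptor of Cxcl16, was at 1.06, 1.87 and 2.22 CPM in control and 0.634, 0.684 and 1.28 CPM in Hdac1/2-deleted mice (log2 fold change -0.98, adjusted p = 0.095).

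Single mice moved these values. Ccr9 had a log2 fold change of -1.19 without C1 (adjusted p = 0.036) and of -0.40 without C3 (adjusted p = 0.65). Cxcr6 was at -1.23 without C1 (adjusted p = 0.043), -1.37 without H9 (adjusted p = 0.048) and -0.74 without C3-3 (adjusted p = 0.27). Cxcr3 was at 0.513, 1.78 and 1.19 CPM in control and 0.472, 0.421 and 1.20 CPM in Hdac1/2-deleted mice (log2 fold change -0.72, adjusted p = 0.34, with -1.36 without H9 and -0.26 without C3). Cxcr4, the receptor of Cxcl12, was at 0.196, 0.648 and 0.132 CPM in control and 0.189, 0.0263 and 0.179 CPM in Hdac1/2-deleted mice (log2 fold change -1.20, adjusted p = 0.23, with -0.24 without C3). Per Cd3e, the log2 ratios of Ccr9, Cxcr6 and Cxcr3 differed by 0.52, 0.15 and 0.42 between the groups, with overlap in each case and two-sided exact permutation p-values of 0.50, 0.70 and 0.40.

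Cx3cr1 and Ccr1 had log2 fold changes above 1 and were not called. Cx3cr1, known from intestinal macrophages, was at 0.453, 0.378 and 0.339 CPM in control and 0.688, 0.605 and 1.56 CPM in Hdac1/2-deleted mice. The groups of Cx3cr1 did not overlap, yet the log2 fold change of 1.29 ± 0.46 (SE) had an adjusted p of 0.052, and DESeq2 gave 1.31 (adjusted p = 0.040). With single mice left out it lay between 0.73 (adjusted p = 0.24, without H9) and 1.52 (adjusted p = 0.041, without H5). Ccr1 was at 0.196, 0.180 and 0.169 CPM in control and 0.513, 0.237 and 0.504 CPM in Hdac1/2-deleted mice, again without overlap (log2 fold change 1.21, adjusted p = 0.062, and 1.48 without H5, adjusted p = 0.036).

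Csf1r, the macrophage growth factor receptor, was at 2.81, 4.54 and 3.61 CPM in control and 9.79, 9.14 and 17.9 CPM in Hdac1/2-deleted mice, a log2 fold change of 1.75 (adjusted p = 0.0023). Per Csf1r, Cx3cr1 and Ccr1 differed by -0.56 and -0.61 in log2 ratio, with overlap and two-sided exact permutation p-values of 0.20 and 0.30. Ccr10 was at 0.211, 0.0720 and 0.113 CPM in control and 0.148, 0.0263 and 0.211 CPM in Hdac1/2-deleted mice (log2 fold change 0.02, adjusted p = 0.98).

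Ackr4 (ENSMUSG00000079355, chromosome 9 from 104084157 to 104126933), a scavenging receptor for Ccl19, Ccl21 and Ccl25, had 38, 23 and 17 counts in control and 1, 2 and 2 counts in Hdac1/2-deleted mice. In CPM these were 0.574, 0.414 and 0.320 against 0.0135, 0.0527 and 0.0325, so all Hdac1/2-deleted mice had fewer counts than the floor. The log2 fold change was -3.78 ± 0.61 (SE, adjusted p = 0.0013), and -2.86 with a prior count of 2. Ackr4 shares 479 exon bases with the abundant Acad11 on the other strand. Acad11 had mean levels of 286 CPM in control and 154 CPM in Hdac1/2-deleted mice and a log2 fold change of -0.90 (adjusted p = 0.0021). The part of Acad11 reads in the Ackr4 counts was not tested.

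The other 3 atypical receptors were not tested. Ackr2, a scavenger of inflammatory CC ligands, had 1, 2 and 3 counts in control and 6, 8 and 20 counts in Hdac1/2-deleted mice, without overlap. Ackr1, known from red cells and venules, had 12, 1 and 0 counts in control and 0 in every Hdac1/2-deleted mouse, so nearly all its counts came from C1. Ackr3 ranged from 2 to 16 counts in control and from 1 to 12 in Hdac1/2-deleted mice.

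Stromal and recruiting ligands, CC ligands apart from Cxcl12, were represented by 4 genes, of which 2 were tested. In edgeR and in DESeq2, 0 were called, and 0 had an unadjusted p under 0.05. Ccl24 (ENSMUSG00000004814), an eosinophil attractant that binds Ccr3, was at 16.9, 14.0 and 23.1 CPM in control and 5.62, 16.3 and 40.2 CPM in Hdac1/2-deleted mice. Its level spread over the whole control range and beyond in the Hdac1/2-deleted group, with a log2 fold change of 0.20 (adjusted p = 0.83), and -0.72 without H9. H9 also had the highest sum of 6 eosinophil and mast cell markers, 78.3 CPM against 4.68 to 22.3 in the other mice. Most of this sum was Mcpt1 at 55.9 CPM, followed by Mcpt2 at 18.0 CPM. In H9 Siglecf was the lowest of all mice, at 2.19 CPM against 2.24 to 3.91, and Il5ra the highest, at 0.569 against 0.180 to 0.364. Of the 5 markers tested, 0 were called. Ccl27a, a ligand of Ccr10 with near-identical copies among which reads may be split, ranged from 0.320 to 0.815 CPM in control and from 0.342 to 0.553 CPM in Hdac1/2-deleted mice (log2 fold change -0.35, adjusted p = 0.57).

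Besides Ccl22 and the 3 atypical receptors, 8 further members were not tested for low counts. Ccr3 had 1, 2 and 1 counts in control and 4, 3 and 16 counts in Hdac1/2-deleted mice, without overlap and highest in H9. Cxcl12, a stromal ligand of Cxcr4, had 31, 14 and 7 counts in control and 8, 4 and 3 counts in Hdac1/2-deleted mice, and its CPM did not overlap. Ccr6, the receptor of Ccl20, had 2, 1 and 2 counts in control and 3, 1 and 6 counts in Hdac1/2-deleted mice. Ccr2, Ccr7, Cxcr5, Ccl11 and Ccl26 had between 0 and 35 counts in any mouse, with overlap between groups. Neutrophil-attracting ligands of the Cxcl1, Cxcl2, Cxcl3 and Cxcl5 type were not analysed here, and of 6 neutrophil markers the 2 in the table, Retnlg and Csf3r, summed to 0.121 to 0.188 CPM in control and 0.202 to 1.11 CPM in Hdac1/2-deleted mice.

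Several members lie next to each other in the genome, and neighbours did not all share a direction. On chromosome 11, Ccl5, Ccl9, Ccl6, Ccl3 and Ccl4 lie in this order between 83525778 and 83664683, with log2 fold changes of -1.90, 0.21, -2.34, -1.44 and -2.54. On chromosome 5, Cxcl9, Cxcl10 and Cxcl11 lie between 92321347 and 92365485, with 0.88, 1.60 and -3.79, and only 10.7 kb separate Cxcl10 from Cxcl11. On chromosome 8, Cx3cl1 lies 28.0 kb from Ccl17, with log2 fold changes of 0.31 and 2.67. On chromosome 9, Ccr9, Cxcr6 and Ccr1 had -0.78, -0.98 and 1.21, and none of these 3 was called.

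**Figure D4:**
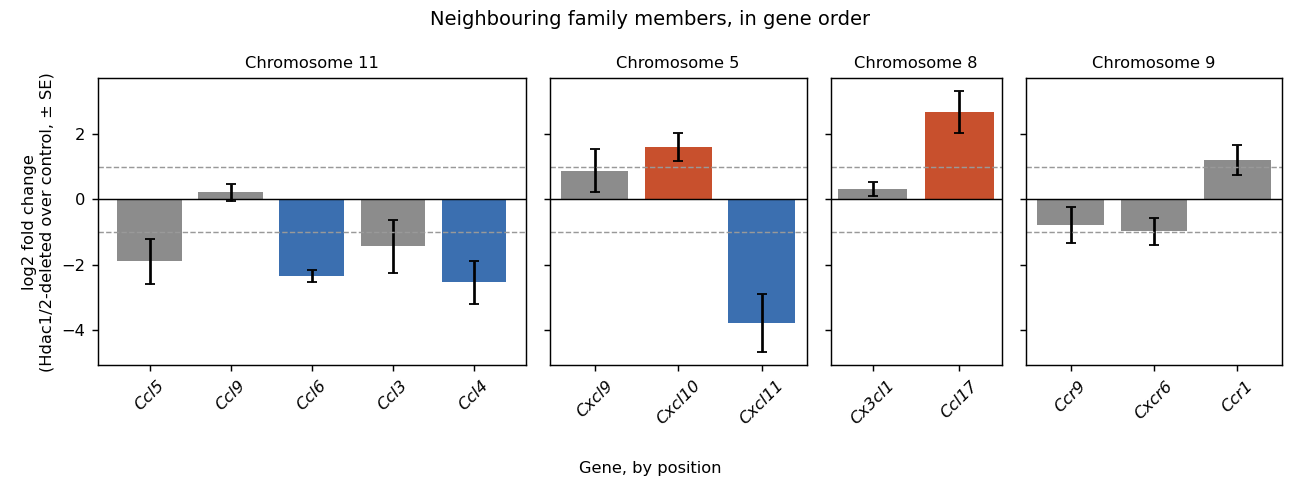
Log2 fold change with standard error (edgeR, 3 mice per group) of tested members that lie within 500 kb of another tested member, in gene order on 4 chromosomes. Orange bars are called increased, blue called decreased and grey not called. Cxcl10 at 1.60 and Cxcl11 at -3.79 stand side by side, as do Ccl9 at 0.21 and Ccl6 at -2.34.

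Read as ligand and receptor pairs, the log2 fold changes gave no uniform pattern. Both genes of the Ccl17 and Ccr4 pair were increased, at 2.67 and 6.92, while Ccl22, the other Ccr4 ligand, was not tested. Cxcl9, Cxcl10 and Cxcl11 were at 0.88, 1.60 and -3.79, and their receptor Cxcr3 was at -0.72. Ccl6 and Ccl9 were at -2.34 and 0.21, and their receptor Ccr1 was at 1.21. Ccl25, its receptor Ccr9 and its scavenger Ackr4 were at -0.51, -0.78 and -3.78, and only Ackr4 was called. Cxcl16 and Cxcr6 were at 0.96 and -0.98, Ccl28 and Ccr10 at -1.03 and 0.02, and Cx3cl1 and Cx3cr1 at 0.31 and 1.29. Differences between ligand and receptor genes were not tested.

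Genes that process chemokines or carry their signals were examined as a list of 12, all tested, of which 1 was increased, 2 were decreased and 9 were not called. Their median log2 fold change was -0.06. Dpp4, the brush-border peptidase that trims and inactivates Cxcl10 and other chemokines, was at 643, 564 and 713 CPM in control and 79.0, 118 and 122 CPM in Hdac1/2-deleted mice. Dpp4 fell by 2.59 on the log2 scale (adjusted p = 3.7e-05), with no overlap. Rgs1, a regulator of G protein signalling found in lymphocytes, fell by 1.58 (adjusted p = 0.012), and Gnai2, the inhibitory G protein subunit through which chemokine receptors signal, was increased from 194, 310 and 264 CPM to 417, 555 and 569 CPM, just at the 2-fold limit (adjusted p = 0.0047).

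Among 21 tested genes of pathways that induce chemokines, such as NF-kB, interleukin 17 and interferon signalling, 1 was increased and 20 were not called by edgeR. By edgeR and by DESeq2, 0 were called decreased, while 8 were lower at an unadjusted p under 0.05 and 7 at an adjusted p up to 0.05 by less than 2-fold. Il17rc, a subunit of the interleukin 17 receptor, was at 117, 136 and 181 CPM in control and 343, 529 and 541 CPM in Hdac1/2-deleted mice (log2 fold change 1.70, adjusted p = 0.00055). Its partner subunit Il17ra, named after the values were seen, was at 28.6, 32.8 and 39.8 CPM in control and 15.4, 14.7 and 20.5 CPM in Hdac1/2-deleted mice, lower by just under 2-fold (adjusted p = 0.003) and so not called. Stat3 was at 146, 179 and 150 CPM in control and 162, 204 and 167 CPM in Hdac1/2-deleted mice (log2 fold change 0.17, adjusted p = 0.42). Of 3 tested relatives outside the symbol rule, Cmklr1, a receptor of chemerin, was increased (log2 fold change 1.75, adjusted p = 0.034) and Ccrl2, which binds chemerin without signalling, was decreased (log2 fold change -1.42, adjusted p = 0.0096).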

How the data were processed

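RNA-Seq libraries of EDTA-enriched jejunal IEC from 3 control and 3 Hdac1/2-deleted mice were analysed. The authors deposited raw counts per gene, with no gene under 10 counts over the 6 samples. They aligned reads with STAR to GRCm38, while the submitters' processing notes list mm9, STAR 2.4.0f1 and bcl2fastq 1.8.4. The counting program, its annotation and its use of strand are not given in the sources used here. The deposited score columns, counts multiplied by 1 factor per sample and rounded by the authors, were checked but not tested. The authors' log2 fold changes, mean log2 CPM values and p-values were not used.

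Counts were fitted with edgeR 4.0.16 (limma 3.58.1, R 4.3.3) by its robust quasi-likelihood method after filterByExpr and TMM, with a prior count of 0.125 and Benjamini-Hochberg adjustment over 15618 genes. DESeq2 1.42.0 served as an alternative. The fit was tested on simulated data. Values per mouse were compared by exact permutation tests. Nothing in the labels says that mice shared a litter or batch. Positions and overlaps came from GENCODE release M21 (GRCm38), matched by gene identifier, and plots from matplotlib 3.10.9.

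All members could be named, called or not, and 1 of them, though counted with the family, is not reported here. Called members and tested epithelial ligands and receptors were given per mouse, the others mostly by range and counts. From lists outside the family only called genes and Stat3 were to be named. Hdac1 and Hdac2 checked the labels, and cell type markers are named beside some members. Members, role groups, pathway lists and marker lists were chosen with earlier results of these data known, and ratios, neighbours, receptor pairs, overlapping genes and promoters after the values were seen. Alternatives changed the scaling, the test, the low-count filter, the prior count and the call limits, and omitted single mice.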

Additional observations from a re-analysis of the deposited data

How the results depend on the processing

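Each count of called members was recomputed under other settings. Increased members numbered 4, against 7 with library totals only, 2 at an adjusted p limit of 0.01 and 3 to 7 with each mouse left out. With at least 10 counts in every sample they numbered 3. Ccr4 and Ccl17 were then not tested, while Cx3cr1 was called by edgeR (log2 fold change 1.30, adjusted p = 0.036). Decreased members numbered 5, against 2 with at least 10 counts in every sample, 2 at the limit of 0.01 and 4 to 8 with each mouse left out (8 without C1, which is low in T cell markers). Called epithelial ligands went from 2 to 0 at the limit of 0.01 and to 1 to 4 with a mouse left out. Interferon-inducible ligands went from 2 to 1 with at least 10 counts, to 0 at the limit of 0.01 and to 1 to 2 with a mouse left out. Leukocyte ligands went from 3 to 1 with at least 10 counts and to 2 to 5 with a mouse left out (5 without C1), and stromal ligands from 0 to between 0 and 1. Called receptors went from 1 to 2 with DESeq2 size factors, 3 with library totals only, 2 with DESeq2 and 1 to 3 with a mouse left out. With at least 10 counts in every sample 1 receptor was called, but it was Cx3cr1 and not Ccr4. The family median of -0.18 lay between -0.66 (without H9) and -0.04 with single mice left out and was 0.01 with library totals only, and the summed epithelial log2 ratio of -0.26 was -0.08 with library totals only, a scaling that moved the median of all genes to 0.18. The cause of these shifts was not tested, beyond the smaller number of genes that stricter limits leave. Genes near 0 changed sign. Xcl1 was at 0.00 with DESeq2 size factors, 0.20 with library totals only, 0.01 with no low-count filter and 0.01 with at least 10 counts in every sample, and between -0.49 and 0.40 when single mice were left out. When single mice were left out, Ccr10 lay between -0.46 and 0.55 and Ccl24 from -0.72 to 0.66. Ccr4, Ccl6, Ccl17 and Ackr4 stayed called with each mouse left out. Of these, only Ccl6 had at least 10 counts in every mouse. Ccr4 and Ccl17 in every control mouse and Ackr4 in every Hdac1/2-deleted mouse had fewer than 10. Leaving out single mice therefore compares these genes with levels near or below the floor in 1 group. No paired analysis was possible because only 1 number, that of C1 and H1, occurs in both groups' mouse names. Low counts limit Ccr4 and Ccl17 in control mice and Ackr4, Ccl4 and Cxcl11 in Hdac1/2-deleted mice, and 12 members could not be tested.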
